A study of Caenorhabditis elegans with 8 samples.

Results

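The genes described here are vab-3 of Caenorhabditis elegans and 8 relatives or partners of it, from a series that sequenced RNA of whole worms after RNA interference (RNAi) against vab-3. They were taken by name from the 46739 genes of the deposited count table, and all 9 were found there. RNAi lowers a transcript by supplying worms with matching double-stranded RNA. All worms were hermaphrodites of the wild-type strain N2, put on the treatment as synchronized young adults and collected on day 5 of adulthood. The control group (2 libraries, numbered 1 and 3) received the empty vector L4440. A second group of 3 libraries carries the label RNAi against vab-3 isoform A, and the last group of 3 the label RNAi against isoform C. N2 carries no mutation in these genes, so the treatment is the only stated difference between the groups. The labels do not say whether replicates were separate cultures, and p-values therefore measure the spread between these libraries, which may be technical.

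Pax proteins are transcription factors that bind DNA through a paired domain, and some of them carry a homeodomain as well. VAB-3 is the worm Pax6 protein and is needed for head epidermis and head sense organs, for cephalic sheath glia and for ending the migration of the gonadal distal tip cells. In flies and vertebrates, Pax6 acts with homeodomain proteins of the Sine oculis family and with Eyes absent (EYA), a phosphatase that serves as their co-activator, in eye development. Worms have counterparts of each, although they have no eyes. Of the Sine oculis family, ceh-32 is the Six3-type gene, unc-39 is Six4-type, and ceh-33 and ceh-34 are further homeobox members, while eya-1 is the Eyes absent gene. The remaining Pax genes are egl-38 and pax-2, both Pax2-type, and the Pax3-type gene pax-3.

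The counts are per gene, and at vab-3 a gene count cannot separate the isoforms that the treatments name. In build WBcel235, vab-3 (WBGene00006870) spans 10499890 to 10519580 of chromosome X, read from the forward strand. The reference annotation gives it 4 transcripts. The longer isoform A transcript has 12 exons and 2598 exon bases. The isoform C transcript has 6 exons and 1824 exon bases, begins 16113 bases after the start of the gene and is known to encode a protein without the paired domain. Of the exon bases of isoform C, 1716 (94.1%) also belong to that isoform A transcript. Only 108 bases, all in its first exon, are outside it, while 882 bases of isoform A are outside isoform C.

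**Figure D1:**
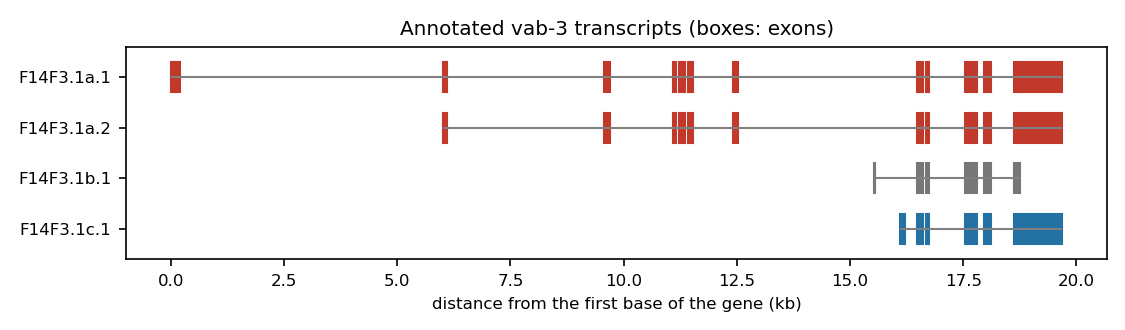
The 4 annotated vab-3 transcripts, drawn by distance in kilobases from the first base of the gene, with exons as boxes joined by a line. Isoform A transcripts are red, isoform C blue and isoform B grey; the last 5 exons of A and C lie at the same places.

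At the level of the whole gene, vab-3 was not lower in the libraries labelled as RNAi against it. In counts, the controls held 83 and 64, the isoform A libraries 154, 160 and 170, and the isoform C libraries 137, 87 and 168. Scaled to the library (CPM, the count divided by the TMM-scaled library size), these are 2.23 and 2.12 in the controls, 4.43, 5.52 and 4.38 in isoform A libraries 1, 2 and 3, and 4.08, 2.04 and 4.84 in isoform C libraries 1, 2 and 3. All 3 isoform A libraries lay above both controls, as in 21.5% of the 14772 genes tested. By contrast, isoform C library 2 lay just below the controls and the other 2 isoform C libraries lay above them. The treatment labels are therefore used only as names, A-labelled and C-labelled, and every direction is a direction between labelled libraries. Reads from the supplied double-stranded RNA, if any were sequenced, would be counted for the same gene, and their part was not tested. In whole worms, a change in the number of cells that express a gene and a change in RNA per cell cannot be told apart.

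Neither difference of vab-3 from the controls passed the threshold of 0.05 after adjustment over all 14772 genes tested. The log2 difference was 1.13 ± 0.34 (SE; 3 against 2 libraries) for the A-labelled libraries, with a 95% interval of 0.36 to 1.90 (edgeR, adjusted p = 0.121). For the C-labelled libraries it was 0.74 ± 0.33, with an interval of -0.02 to 1.5 (edgeR, adjusted p = 0.700). DESeq2 gave nearly the same size for the A-labelled libraries, 1.12 ± 0.36, and there the gene passed (DESeq2, adjusted p = 0.0332), in a test that called 9.21% of all genes with an adjusted p. Between the A-labelled and C-labelled libraries the log2 difference was 0.39 ± 0.29, with an interval of -0.26 to 1.04 (edgeR, adjusted p = 0.462). The value moved with single C-labelled libraries. Without C-labelled library 2 the A-labelled libraries differed from the C-labelled by 0.07 ± 0.18 (edgeR, adjusted p = 0.838), and the C-labelled from the controls by 1.05 ± 0.20 (edgeR, adjusted p = 0.460). Without C-labelled library 3 these differences were 0.65 ± 0.30 (edgeR, adjusted p = 0.456) and 0.48 ± 0.33 (edgeR, adjusted p = 0.763). The 3 groups share 1 model, so C-labelled libraries also enter the error of the A-labelled difference from control. Without C-labelled library 2 that difference was 1.12 ± 0.19, with an interval of 0.69 to 1.56 (edgeR, adjusted p = 0.181).

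**Figure D2:**
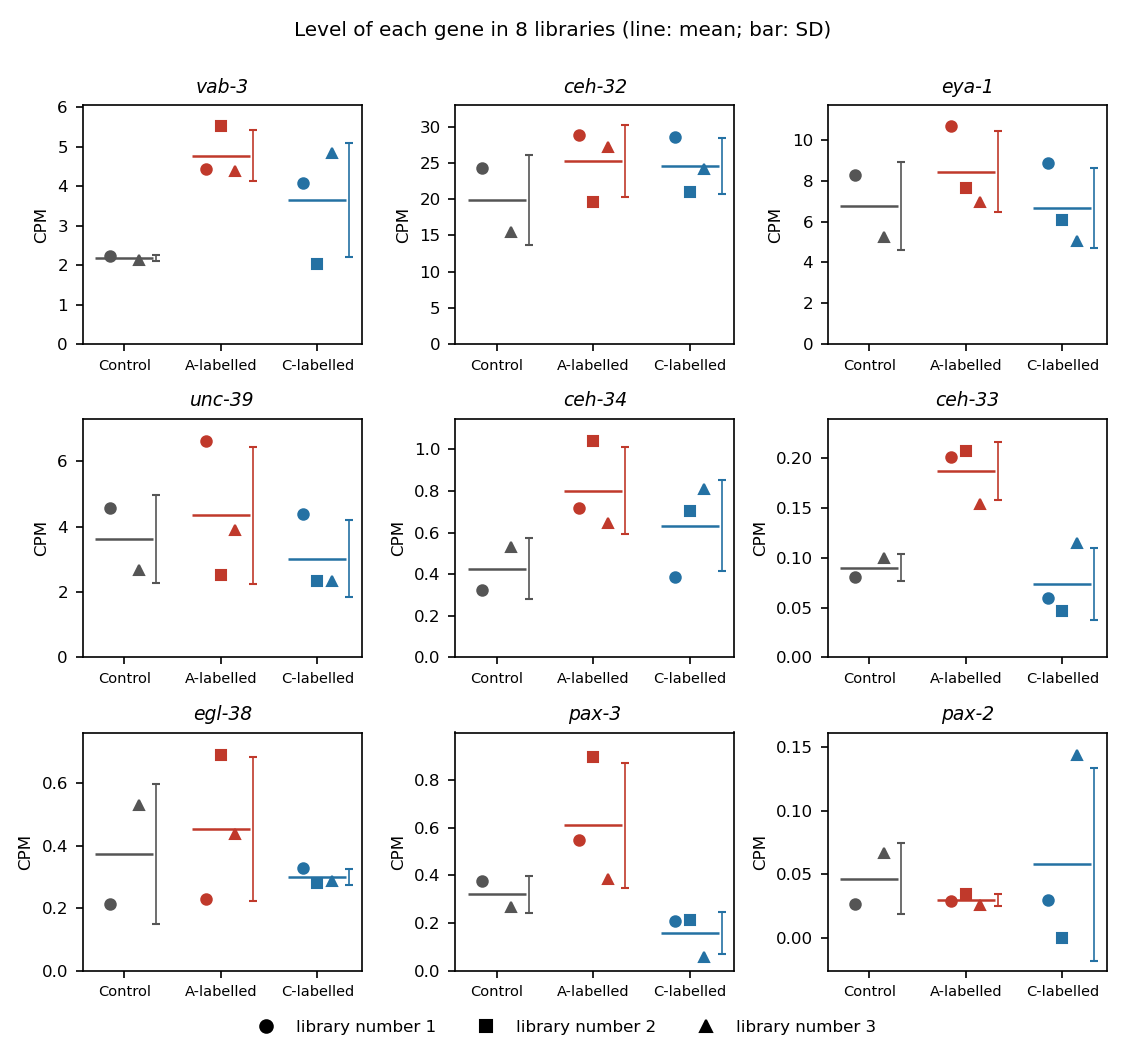
CPM of each of the 9 genes in the control, A-labelled and C-labelled libraries; each point is a library, its shape gives the library number, the line is the group mean and the bar the SD. The A-labelled points of vab-3 (4.38 to 5.52) lie above both controls, and C-labelled library 2 (2.04) lies with the controls; pax-2 and ceh-33 rest on 0 to 7 counts per library.

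Per length, the 9 genes ran from ceh-32 at the top to pax-2 at the bottom. Levels between genes are compared here as the authors' RPKM, which scales counts by library total and by gene length. The mean over all 8 libraries was 12.7 RPKM for ceh-32, with a range of 8.21 to 15.8. Next came eya-1 with 4.17 (2.86 to 6.15), unc-39 with 3.36 (2.1 to 6.14) and vab-3 with 1.53 (0.829 to 2.18). Each of these 4 genes was above the next in all 8 libraries, although the range of unc-39 overlaps with that of eya-1 and with that of vab-3. Lower down stood ceh-34 with 0.586 RPKM (0.301 to 0.906), egl-38 with 0.428 (0.252 to 0.759), pax-3 with 0.395 (0.0623 to 0.926), ceh-33 with 0.147 (0.0562 to 0.250) and pax-2 with 0.0397 (0 to 0.129). The order from ceh-34 to pax-3 is not settled by these libraries: ceh-34 was above egl-38 in 6 of 8 and egl-38 above pax-3 in 5 of 8. The lengths behind the deposited RPKM are shorter than the annotated exons for some genes (870 against 1411 bases for egl-38), yet with annotated lengths the order of the 9 means was unchanged.

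Depth and the spread between libraries both limit which of these genes can be judged. Over the 8 libraries, ceh-32 had 6700 counts, eya-1 2061, unc-39 1032 and vab-3 1023. By contrast ceh-34 had 179, egl-38 102, pax-3 100, ceh-33 33 and pax-2 12. The last 2 did not pass the expression filter and have no main test, which leaves 7 genes tested. For the 4 well-counted genes, replicates pooled over the 3 groups varied far beyond counting error. The variance within groups was 33.9 times the counting variance for ceh-32, 22.7 times for unc-39, 19.1 times for eya-1 and 10.4 times for vab-3. For vab-3 this spread was uneven between groups. Its largest CPM was 1.05 times the smallest in the controls, 1.26 times in the A-labelled and 2.37 times in the C-labelled libraries. For ceh-34, egl-38 and pax-3 the pooled ratio to counting variance was only 2.08, 2.49 and 2.31, so a large part of their scatter is of the size that counting gives.

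None of the 7 tested genes passed in any of the 3 comparisons by edgeR, and few genes of any kind did. Among all 14772 genes, 0 (0.0%) passed between A-labelled and control libraries, 14 (0.0948%) between C-labelled and control libraries and 6 (0.0406%) between A-labelled and C-labelled libraries. At an unadjusted p below 0.05, 1 of the 7 was found between A-labelled and control libraries (vab-3), 0 between C-labelled and control, and 1 between A-labelled and C-labelled (pax-3), where 26.0, 7.34 and 19.2% of all genes were. DESeq2 called 1 of them, vab-3, in the first comparison, where it called 9.21% of all genes with an adjusted p, and 0 in the others. It gave no adjusted p to egl-38 and pax-3 in the first comparison, nor to these and ceh-34 between C-labelled and control libraries, which leaves 5 and 4 of the 7 that could be called there. Without A-labelled library 1, edgeR called 1303 genes between A-labelled and control libraries and 748 between A-labelled and C-labelled libraries, with 0 of the 7 genes among either. In log2 difference, 7 of 7 lay above 0 between A-labelled and control libraries, with a median of 0.34 against 0.03 for all genes, of which 54.5% lay above 0. Between C-labelled and control libraries it was 3 of 7, with a median of -0.03 against -0.01, and 46.5% of all genes above 0. Between A-labelled and C-labelled libraries it was 7 of 7, with a median of 0.39 against 0.02, and 54% of all genes above 0. The first and second of these comparisons share their controls, and the first and last share the A-labelled libraries.

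**Figure D3:**
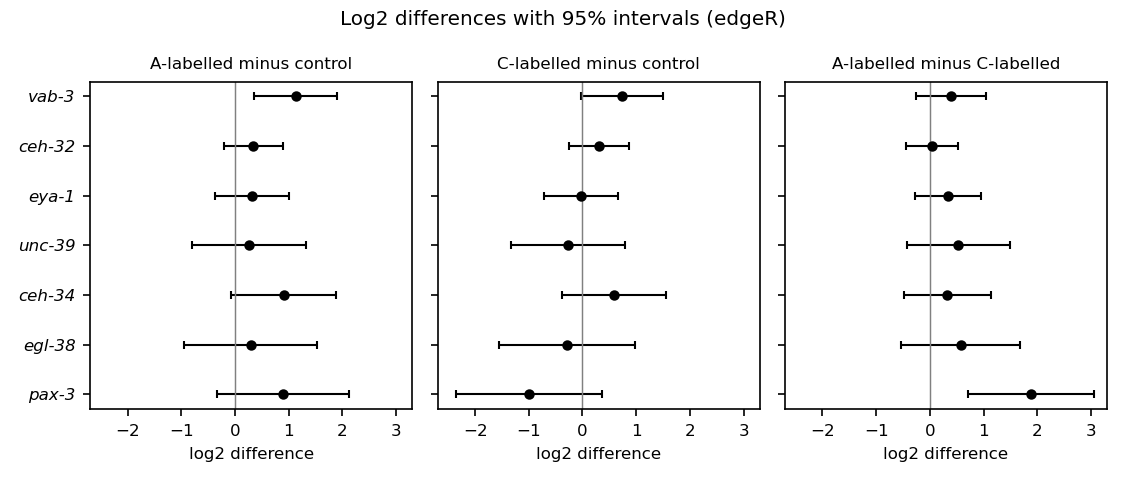
Log2 differences with 95% intervals from edgeR for the 7 genes tested, in each of the 3 comparisons. Intervals that leave out 0 are those of vab-3 between A-labelled and control libraries (0.36 to 1.90) and of pax-3 between A-labelled and C-labelled libraries (0.71 to 3.05), and neither passed after adjustment over all genes.

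The Six3-type gene ceh-32 is made in the head, where it is reported to lie downstream of vab-3 in the embryo, and it was the most abundant of the 9. It measured 24.3 and 15.5 CPM in the controls, 28.9, 19.6 and 27.2 CPM in A-labelled libraries 1, 2 and 3, and 28.6, 21 and 24.2 CPM in C-labelled libraries 1, 2 and 3. The 3 groups overlap, and the controls alone differ 1.57-fold. Its log2 difference from control was 0.34 ± 0.24 in the A-labelled libraries (interval -0.21 to 0.90; edgeR, adjusted p = 0.390) and 0.30 ± 0.24 in the C-labelled libraries (-0.25 to 0.86; edgeR, adjusted p = 0.829). Between A-labelled and C-labelled libraries the difference was 0.04 ± 0.21, with an interval of -0.45 to 0.53 (edgeR, adjusted p = 0.929). WBcel235 places ceh-32 (WBGene00000453) on the reverse strand of chromosome V, from 11701764 to 11705400.

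The Six4-type gene unc-39, which acts in mesoderm and in the choice of neuron fates, and the co-activator gene eya-1 differed more between same-group libraries than between groups. For unc-39, the controls held 4.56 and 2.66 CPM, A-labelled libraries 1, 2 and 3 held 6.62, 2.52 and 3.89 CPM, and C-labelled libraries 1, 2 and 3 held 4.38, 2.34 and 2.33 CPM. For eya-1 the values were 8.29 and 5.25 CPM in the controls, 10.7, 7.66 and 6.95 CPM in A-labelled libraries, and 8.85, 6.07 and 5.04 CPM in C-labelled libraries, in the same order. The 3 groups overlap for both genes. The log2 difference of unc-39 from control was 0.26 ± 0.46 in the A-labelled libraries (edgeR, adjusted p = 0.754) and -0.27 ± 0.46 in the C-labelled (edgeR, adjusted p = 0.928). That of eya-1 was 0.31 ± 0.30 (edgeR, adjusted p = 0.545) and -0.03 ± 0.30 (edgeR, adjusted p = 0.992). The gene unc-39 (WBGene00006775) lies on chromosome V, forward strand, 14373074 to 14375881, and eya-1 (WBGene00001377) on chromosome I, reverse strand, 14220693 to 14231360.

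In every group the library numbered 1 held the highest level of unc-39, of eya-1 and of ceh-32. The ratio of library 1 to library 3 for unc-39 was 1.72 in the controls, 1.70 in the A-labelled and 1.88 in the C-labelled libraries. For eya-1 it was 1.58, 1.54 and 1.76. The same ratio for ceh-32 was 1.57, 1.06 and 1.19, and for vab-3 it was 1.05, 1.01 and 0.844, close to 1 in the controls and the A-labelled libraries. What a library number stands for is not stated in the labels. Deviations of same-numbered A-labelled and C-labelled libraries correlated at 0.61, 0.43 and 0.22 across all genes, and different-numbered libraries were not compared. A fit that pairs the numbers on that ground (a replicate block) gave smaller errors for unc-39 and eya-1. Without the block, the A-labelled minus C-labelled difference was 0.53 ± 0.41 for unc-39 (edgeR, adjusted p = 0.488) and 0.34 ± 0.27 for eya-1 (edgeR, adjusted p = 0.490). With the block, it was 0.49 ± 0.16 for unc-39 (edgeR, adjusted p = 0.0693) and 0.35 ± 0.11 for eya-1 (edgeR, adjusted p = 0.0606). Neither passed, in a fit that called 11.5% of all genes. Against control, the blocked difference of ceh-32 was 0.49 ± 0.13 in the A-labelled (edgeR, adjusted p = 0.0598) and 0.46 ± 0.13 in the C-labelled libraries (edgeR, adjusted p = 0.179). In the same order it was 0.38 ± 0.13 and 0.03 ± 0.13 for eya-1, and 0.47 ± 0.18 and -0.03 ± 0.18 for unc-39. None of these passed either, where 546 genes of the whole table were called for the A-labelled and 102 for the C-labelled libraries.

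**Figure D4:**
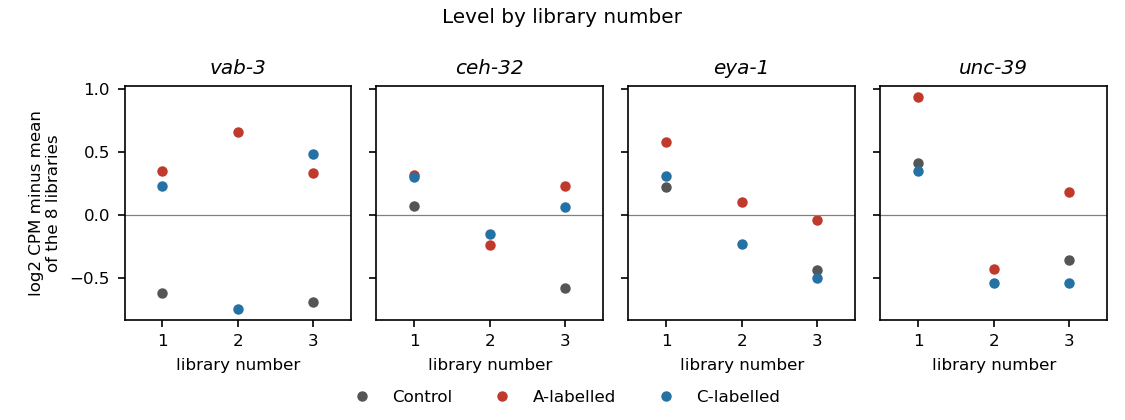
Log2 CPM of vab-3, ceh-32, eya-1 and unc-39, each less its mean over the 8 libraries, by library number, with a colour for each group; the controls have no library 2. For eya-1 and unc-39 the points at number 1 stand highest in each group (0.22 to 0.58 and 0.35 to 0.94), while for vab-3 number 1 is highest in the controls alone.

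The neighbouring homeobox genes ceh-33 and ceh-34 lie on the reverse strand of chromosome V with 3616 bases between them (5323194 to 5324666 and 5315496 to 5319577). In C. elegans, ceh-34 acts with eya-1 in the pharynx, where it specifies the pharyngeal neurons. It had 12 and 16 counts in the controls, 25, 30 and 25 in the A-labelled libraries, and 13, 30 and 28 in the C-labelled libraries. As CPM these are 0.322 and 0.531, then 0.719, 1.04 and 0.644, then 0.388, 0.703 and 0.807. The A-labelled libraries lay above both controls, as in 21.5% of all genes tested, and the C-labelled ones overlapped with the controls. Its log2 difference was 0.91 ± 0.43 for A-labelled against control (interval -0.07 to 1.88; edgeR, adjusted p = 0.217) and 0.58 ± 0.43 for C-labelled against control (-0.39 to 1.56; edgeR, adjusted p = 0.817). For ceh-33 the counts were 3 and 3 in the controls, 7, 6 and 6 in the A-labelled and 2, 2 and 4 in the C-labelled libraries. Summed over each group and divided by the unscaled totals, this is 0.0896, 0.185 and 0.0720 CPM, with exact 95% Poisson intervals, which cover counting error only, of 0.0329 to 0.195, 0.111 to 0.289 and 0.0311 to 0.142. The intervals overlap, which is not a test of a difference, and at 2 to 7 counts per library ceh-33 is too low to judge. In the fit with no expression filter, its log2 difference was 1.03 ± 0.69 for A-labelled against control libraries (edgeR, adjusted p = 0.476). It was 1.31 ± 0.61 for A-labelled against C-labelled libraries (edgeR, adjusted p = 0.363).

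Among the other Pax genes, pax-3 showed the widest range. The Pax3-type gene pax-3, known for a role in the ventral epidermis of the embryo, had 14 and 8 counts in the controls, 19, 26 and 15 in A-labelled libraries 1, 2 and 3, and 7, 9 and 2 in C-labelled libraries 1, 2 and 3. Its CPM were 0.376 and 0.266 in the controls, 0.547, 0.897 and 0.386 in the A-labelled libraries, and 0.209, 0.211 and 0.0576 in the C-labelled libraries. The 3 groups do not overlap: A-labelled libraries stood highest, controls between and C-labelled libraries lowest. The lowest A-labelled and the highest control library held 15 and 14 counts. Of all genes tested, 21.5% had every A-labelled library above both controls, and 15.5% every C-labelled library below both. Every A-labelled library was above every C-labelled one in 12.7%, and the share with the full order was not counted. Between A-labelled and C-labelled libraries the log2 difference was 1.88 ± 0.51, which is 3.68-fold (interval 0.71 to 3.05; edgeR, adjusted p = 0.144). With the replicate block it was 1.93 ± 0.40 and passed (edgeR, adjusted p = 0.0206), in a fit that called 11.5% of all genes. The pairs in that block were taken from these same data. Without C-labelled library 3, which had 2 counts, the unblocked difference was 1.51 ± 0.49 (edgeR, adjusted p = 0.392). Against control, the A-labelled libraries differed by 0.89 ± 0.54 (edgeR, adjusted p = 0.324) and the C-labelled by -0.99 ± 0.60 (edgeR, adjusted p = 0.774). The gene pax-3 (WBGene00003939) lies on chromosome II, forward strand, 10146570 to 10152865.

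The Pax2-type gene egl-38, which acts in the egg-laying system and the male tail, had 8 and 16 counts in the controls, 8, 20 and 17 in the A-labelled and 11, 12 and 10 in the C-labelled libraries. The groups overlap, and its log2 difference from control was 0.29 ± 0.54 in the A-labelled (interval -0.95 to 1.52; edgeR, adjusted p = 0.775) and -0.29 ± 0.55 in the C-labelled libraries (-1.55 to 0.97; edgeR, adjusted p = 0.938). Both intervals reach far to either side of 0, so its direction is not settled at this depth. The second Pax2-type gene, pax-2, had 1 and 2 counts in the controls, 1, 1 and 1 in the A-labelled, and 1, 0 and 5 in the C-labelled libraries. As CPM of the unscaled group totals, these came to 0.0448 (exact Poisson interval 0.00924 to 0.131), 0.0292 (0.00602 to 0.0853) and 0.0540 (0.0198 to 0.118). No difference was detectable at this depth. Both genes lie on the reverse strand of chromosome IV, egl-38 (WBGene00001204) from 10106599 to 10110517 and pax-2 (WBGene00003938) from 4198973 to 4204375.

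Counted by separation of the groups, 3 of the 7 tested genes (vab-3, ceh-34 and pax-3) had every A-labelled library above both controls, as did 21.5% of all genes tested. One, pax-3, had every C-labelled library below both controls, as did 15.5% of all genes, and every A-labelled library above every C-labelled library, as did 12.7%.

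Genes linked to these factors in C. elegans were examined as 4 short lists. In any comparison 0 of them passed (edgeR), where at most 0.0948% of all genes tested did. Of 7 reported targets, VAB-3 acts on the integrin alpha genes ina-1 and pat-2 in the distal tip cells, and EGL-38 and PAX-2 on the cell-survival gene ced-9. The growth factor gene lin-3, the zinc finger gene lin-48 and the neuropeptide genes nlp-2 and nlp-7 are reported targets of EGL-38. Between A-labelled and control libraries 3 of the 7 lay higher, with a median log2 difference of -0.04, and 54.5% of all genes. Between C-labelled and control libraries it was 3 of 7, with a median of 0, and 46.5% of all genes. The gene ina-1 measured 53.5 and 47.1 CPM in the controls, 51.4, 54.6 and 54 CPM in the A-labelled and 52.2, 53.4 and 55.5 CPM in the C-labelled libraries. Its differences from control were 0.08 ± 0.07 (edgeR, adjusted p = 0.476) and 0.09 ± 0.07 (edgeR, adjusted p = 0.818), so the groups lay close together.

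The integrin gene pat-2, which body wall muscle also uses, measured 10.7 and 11.3 CPM in the controls, 17.7, 34 and 25.3 CPM in A-labelled libraries 1, 2 and 3, and 13.3, 15.3 and 10.5 CPM in the C-labelled libraries. Every A-labelled library was above all others, with a log2 difference from control of 1.22 ± 0.27 (edgeR, adjusted p = 0.121). Of all genes tested, 21.5% had every A-labelled library above both controls, and 12.7% had every A-labelled library above every C-labelled one. The gene ced-9 lay at 115 and 116 CPM in the controls, 94.9, 83.4 and 99.1 CPM in the A-labelled and 101, 106 and 108 CPM in the C-labelled libraries. Both RNAi-labelled groups were below the controls, by -0.32 ± 0.07 (edgeR, adjusted p = 0.121) and -0.14 ± 0.07 (edgeR, adjusted p = 0.751). Of all genes tested, 15.5% had every C-labelled library below both controls. That share was not counted for the A-labelled libraries, where 26.0% of all genes had an unadjusted p below 0.05 against control (edgeR). For lin-3 the differences were -0.04 ± 0.05 (edgeR, adjusted p = 0.655) and, to 2 decimals, 0. For lin-48, with 10 to 36 counts per library, they were -0.41 ± 0.39 (edgeR, adjusted p = 0.538) and -0.85 ± 0.39 (edgeR, adjusted p = 0.705).

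Of 4 cofactors and network partners, 2 lay higher in A-labelled than in control libraries and 1 in C-labelled libraries. For all genes these shares were 54.5 and 46.5%. The 4 genes are dac-1, the Dachshund gene, the co-repressor genes unc-37 and lsy-22, and the geminin gene gmn-1. Their log2 differences from control lay between -0.16 (gmn-1) and 0.30 (dac-1) in the A-labelled libraries and between -0.31 (dac-1) and 0.21 (unc-37) in the C-labelled libraries. Among 5 further genes with a paired-type domain only npax-4 could be tested, at -0.10 ± 0.38 and -0.48 ± 0.38 against control, while eyg-1, npax-1, npax-2 and npax-3 had 0 to 9 counts per library. Of 5 genes marking cephalic sheath glia, mls-2 and ptr-10 could be tested. The patched-related gene ptr-10 measured 0.859 and 0.697 CPM in the controls, 1.27, 3.21 and 2.39 CPM in the A-labelled and 0.656, 0.844 and 1.12 CPM in the C-labelled libraries (A-labelled against control 1.54 ± 0.42; edgeR, adjusted p = 0.121). The homeobox gene mls-2 differed from control by 0.34 ± 0.31 in the A-labelled and -0.13 ± 0.31 in the C-labelled libraries. The glial genes hlh-17, hlh-31 and hlh-32 had 0 to 3 counts per library.

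Markers of epidermis and cuticle, moulting and muscle lay higher in the A-labelled group, most in libraries 2 and 3, which also stood apart on the first principal component (64.6 and 54.7, the other libraries between -40.0 and 1.10). All 10 epidermis and cuticle markers and all 10 body wall muscle markers lay higher in A-labelled than in control libraries. So did all 8 moulting markers and all 6 pharyngeal muscle markers tested, and 54.5% of all genes. None was called, but 0 of all 14772 genes were called in this comparison. At an unadjusted p below 0.05 (edgeR) were 10, 10, 8 and 4 of these markers, in that order, and 26.0% of all genes. The summed epidermis and cuticle markers were 103 and 114 CPM in the controls, 160, 528 and 357 CPM in A-labelled libraries 1, 2 and 3, and 81.8, 135 and 85.1 CPM in the C-labelled libraries. The summed body wall muscle markers were 832 and 991 CPM, then 1400, 2570 and 1920 CPM, then 1060, 1290 and 908 CPM. Of the other lists, 13 of 15 pan-neuronal, 8 of 8 sperm, 4 of 4 distal tip and somatic gonad, 4 of 5 glia and sheath, 4 of 7 intestine and 2 of 10 germline and oocyte markers tested lay higher in A-labelled than in control libraries, again with none called. In the same order, 9, 3, 3, 1, 0 and 4 of them had an unadjusted p below 0.05 (edgeR). Of the markers found in the count table, none was at 0 in all libraries. In the intestine list, 7 of the 8 markers were found there. Against the control mean, vab-3 lay 1.01, 1.32 and 0.99 higher on the log2 scale in A-labelled libraries 1, 2 and 3 and 0.89, -0.09 and 1.13 in C-labelled libraries 1, 2 and 3. The epidermis and cuticle list lay at 0.54, 2.73 and 2.13, then at -1.27, -0.22 and -0.74. In the same order, the sperm list lay at 0.09, 1.66 and 2.62, then at -0.63, 1.51 and 0.73. The distal tip and somatic gonad list lay at 0.49, 1.21 and 0.87, then at 0.42, 0.60 and 0.34. The part of these tissues in the level of vab-3 was not tested. When A-labelled library 1 alone stood for its group, the vab-3 difference from control was 1.04 ± 0.47, with an interval of -0.09 to 2.17 (edgeR, adjusted p = 0.663), and the single library is assumed to vary like the other groups. In that library the epidermis and cuticle, moulting, body wall muscle and pharyngeal muscle lists also lay above the control mean, by 0.54 to 0.62.

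**Figure D5:**
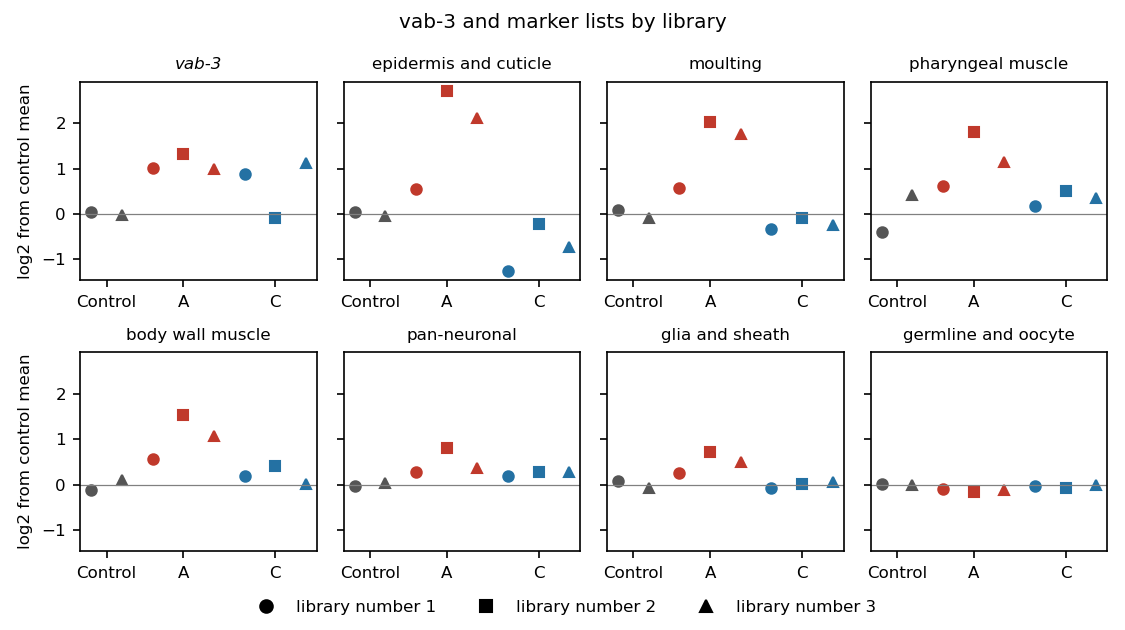
Log2 difference from the control mean in each library for vab-3 and for the mean of 7 marker lists; colours give the group and shapes the library number. The epidermis and cuticle list reaches 2.73 and 2.13 in A-labelled libraries 2 and 3 and lies below 0 in the C-labelled libraries, while vab-3 lies at 0.89 to 1.32 in A-labelled libraries 1, 2 and 3 and C-labelled libraries 1 and 3.

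For the 4 genes above 1 CPM, the genes with the most similar course over the 8 libraries were sought among 6121 others. These passed the expression filter, had a mean of at least 1 CPM and carry a symbol of the gene-class form, as vab-3 does. Genes known only by a sequence name were left out. Likeness is the root-mean-square difference of log2 CPM, each gene less its own mean, and it is a description of 8 libraries. Closest to vab-3, whose own value around its mean is 0.546, were pgp-10 (0.262), a P-glycoprotein gene, syg-1 (0.266), which guides synapse placement, and the saposin-like gene spp-22 (0.269). Closest to ceh-32 (own value 0.290) were the F-box gene fbxb-24 (0.074), the caveolin gene cav-1 (0.081) and cpt-6 (0.086), a carnitine palmitoyltransferase gene. For unc-39 (own value 0.513) they were ham-1 (0.162), which acts in asymmetric neuroblast divisions, the insulin-like gene ins-2 (0.171) and fbxc-40 (0.183). For eya-1 (own value 0.350) they were the fatty acid-binding protein gene lbp-1 (0.091), the transcription factor gene sox-2 (0.094) and the linker histone gene his-24 (0.096). Between the 4 genes themselves, unc-39 and eya-1 were closest (0.275), followed by ceh-32 and eya-1 (0.277), and vab-3 and unc-39 were farthest apart (0.693). Of the compared genes, 37 were closer to unc-39 than eya-1 was, and 288 were closer to eya-1 than unc-39 was. For vab-3, 606 were closer than ceh-32, its nearest among the other 3.

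Reads of overlapping genes could in principle enter these counts, since the library kit does not mark strand. All 12 genes annotated within vab-3 are non-coding RNA genes that share no exon base with it, and each had 0 or 1 counts per library. The nearest protein-coding genes of vab-3, C33D3.5 and F14F3.4, had 0 to 3 and 0 to 14 counts per library. At ceh-34, the overlapping gene C10G8.2 shares 94 exon bases and had 0 counts in all libraries. Neighbours that end close to a low member were counted far more often in some cases. At egl-38, dis-3 ends 75 bases away on the opposite strand and had 3804 to 5518 counts per library, beside the 8 to 20 of egl-38. On its other side spch-1 ends 300 bases away on the same strand, with 8 to 173 counts. At ceh-33, C10G8.8 ends 139 bases away on the same strand and had 1142 to 1715 counts, beside the 2 to 7 of ceh-33. Whether reads running past these ends entered the counts was not tested.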

How the data were processed

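RNA of whole worms was sequenced in 8 libraries (2 control, 3 A-labelled, 3 C-labelled), from a kit that does not mark strand. The tools named, per the submitters' processing notes, are featureCounts 1.5.0, TopHat2 2.1.0 and bcl2fastq 1.8.4, with build WBcel235. Not given in the sources used here are the annotation release and how strand and multiply mapped reads were treated. The authors deposited read counts per gene, and RPKM values that they computed from them. Gene totals ran from 30289733 to 43364047 counts per library, and 18650 to 19675 genes had a count. Replicates differed by more than sampling noise, so none were merged.

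The counts were tested with the quasi-likelihood test of edgeR 4.0.16 in R 4.3.3, with robust dispersions, TMM scaling (factors 0.957 to 1.02), 1 model of the 3 groups and the default expression filter at a minimum count of 10. It left 14772 genes, and Benjamini-Hochberg adjustment ran over all of them with a threshold of 0.05. The filter kept at least 99.94% of the counts of each library. Intervals are 95%. Alternatives were DESeq2 1.42.0, its size factors in edgeR, no filter, 2-group fits, a replicate block and leaving out each library. Leaving out A-labelled libraries 2 and 3 together was added after seeing the data. The fit was tested on simulated data with known changes.

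Deviations of same-numbered A-labelled and C-labelled libraries from their group means correlated at 0.61, 0.43 and 0.22 over genes. Those numbers were treated as pairs in the block, on the evidence of the data alone. Different-numbered libraries were not compared in this way, so the correlations cannot show that the number matters. The block was 1 term for the library number over all 8 libraries, so the controls entered it as numbers 1 and 3. Control libraries 1 and 3 correlated at 0.22 and 0.03 with the same-numbered A-labelled libraries, and at 0.32 and 0.20 with the C-labelled ones. For the comparisons with control, where only 2 numbers are shared, the numbers were not taken as pairs and the blocked values are alternatives only. Transcripts and coordinates come from an Ensembl annotation of the same build. All 9 members were named. Of other genes, the rule named ina-1, pat-2, ced-9, lin-3 and lin-48, called genes of the pathway lists, the 3 closest profiles per member above 1 CPM, and overlapping or nearest genes. The other pathway genes given with values fall outside the rule and were chosen after their values were seen. Members, lists and tests were chosen with earlier results of these data known.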

Additional observations from a re-analysis of the deposited data

How the results depend on the processing

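Of the log2 differences of the 7 genes under the alternatives, 271 kept their direction and side of the threshold, 15 changed sign and 2 newly passed. The first was vab-3 between A-labelled and control libraries with DESeq2 (1.12, DESeq2 adjusted p = 0.0332). In that test 9.21% of all genes with an adjusted p were called, and egl-38 and pax-3 had none. The second was pax-3 between A-labelled and C-labelled libraries with the replicate block (1.93, edgeR adjusted p = 0.0206), where 11.5% of all genes were called. The replicate block changed no other call on these genes. For vab-3 the A-labelled difference ran from 1.03 to 1.25 over all alternatives.

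The number of genes called between A-labelled and control libraries was 1149 with DESeq2 (772 higher, 377 lower), 8 with no filter, 546 with the replicate block and 0 to 1303 on leaving out a library. Between C-labelled and control libraries, against 14, it was 155 with DESeq2, 23 with only the 2 groups, 102 with the replicate block, 25 without A-labelled libraries 2 and 3, and 1 to 15 on leaving out a library. Between A-labelled and C-labelled libraries, against 6, it was 663 with DESeq2, 12 with no filter, 1 with only the 2 groups, 1702 with the replicate block and 1 to 748 on leaving out a library. The cause was not tested.

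No sign change concerned a called difference. On leaving out a library, unc-39 ran from -0.17 to 0.71 between A-labelled and control libraries and from -0.62 to 0.18 between C-labelled and control libraries. Likewise egl-38 ran from -0.25 to 1.04 and from -0.82 to 0.47, eya-1 from -0.32 to 0.34 between C-labelled and control libraries, and ceh-32 from -0.08 to 0.19 between A-labelled and C-labelled libraries. With the replicate block eya-1 was at 0.03 between C-labelled and control libraries. Without A-labelled libraries 2 and 3, egl-38 was at -0.64 against control and -0.37 against the C-labelled libraries. Depth limits ceh-33 and pax-2 most, then pax-3, egl-38 and ceh-34.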
